A study of Mus musculus with 13 samples.

Results

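Fatty acid oxidation breaks fatty acids down to acetyl-CoA, and in the colon it is also the route by which surface epithelial cells burn butyrate, the short-chain fatty acid that gut bacteria make. The 39 genes described here were chosen by name: 14 act in mitochondrial oxidation, 8 in or around peroxisomal oxidation, 10 in carnitine and acyl-CoA handling, and 7 are lipid handling genes known as PPAR targets. They are 39 of the 32285 genes in the deposited matrix, and 37 of them had at least 100 UMI (unique molecules counted) over all cells. Those 37 are called measured, as are 11015 genes of the series.

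Fatty acids are activated to acyl-CoA by synthetases and carried into mitochondria as acylcarnitines. There they are shortened by a repeated cycle of dehydrogenase, hydratase, hydroxyacyl dehydrogenase and thiolase, and the electrons pass to the respiratory chain through the electron transfer flavoprotein. Peroxisomes run a like cycle on very long and branched chains. Many of these genes are targets of PPARs, nuclear receptors that fatty acids activate and that bind DNA together with RXR.

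The cells are colon epithelium of germ-free C57BL/6J mice and of wild type C57BL/6J mice given antibiotics. The antibiotics, their duration, and the age, sex and number of mice are not given in the labels. Epithelial cells of the whole colon were pooled within each condition, and EPCAM-positive, CD45-negative cells were sorted with CD44-positive (proliferative) and CD44-negative (differentiated) cells in equal parts, per the labels' protocols. RNA of single cells was captured in droplets and read from the 3′ end, in 2 germ-free and 3 antibiotic cDNA libraries. Control mice were not analysed here.

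Each condition was a single pool with libraries of its own, and an effect of the libraries cannot be told apart from one of condition. There is no replicate error, and no test is given. The cells fall into numbered cell sets, germ-free 3 and 4 and antibiotic 1, 2 and 3. Germ-free sets 3 and 4 held 306 and 462 cells with 403007 and 2697873 UMI, against 791, 852 and 935 cells with 7818338, 11763013 and 15706465 UMI in antibiotic sets 1, 2 and 3. Median UMI per cell were 1045 and 4681.5 in the germ-free sets, and 7186 to 12997 in the antibiotic sets. Germ-free sets shared no cell barcode, whereas antibiotic sets shared 315 between sets 1 and 2, 501 between sets 2 and 3, and 48 between sets 1 and 3. The shallower copies held 9.73 to 27.8 times fewer UMI in the median, so only the deepest copy of each barcode was kept, which left 768 germ-free and 2578 antibiotic cells. All 12 calls given below were also made with every deposited cell included. Mitochondrial genes took 18.6% and 18.7% of UMI in the germ-free sets, against 11.7% to 13.0% in the antibiotic sets. Xist was at 645 to 754 CPM in germ-free sets and 198 to 221 CPM in antibiotic sets, so the balance of female and male cells also differed. Epithelial identity was plain in both pools, with 5324 and 52017 Epcam UMI in germ-free and antibiotic cells, against 1 and 20 UMI of the leukocyte gene Ptprc and 0 and 2 UMI of the T cell gene Cd3e.

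PPAR and RXR bind a direct repeat of AGGTCA with 1 free base (N) between the copies, and promoters were searched for it because these genes were grouped as likely PPAR targets. RefSeq promoter windows (GRCm38.p6, 250 bases before to 50 bases after the start) were at hand for 32 of the 39 genes, all but Acaa2, Hsd17b4, Decr1, Crat, Cyp4a10, Vnn1 and Angptl4. With up to 2 mismatches on either strand, 6 of the 32 windows (18.8%) held the repeat, against 4.4% of the windows of 27025 genes. With up to 1 mismatch it was in the window of Fabp1 alone, 3.13% of the 32 against 0.644% of all. With up to 3 mismatches the shares were 34.4% and 27.3%, and no window of the 32 held an exact match. The other windows with a match at 2 mismatches were those of Plin2, Cd36, Echs1, Etfa and Slc25a20, the last with its match 7 to 19 bases after the start. The Fabp1 window upstream of its start (chr6:71199629-71199878, plus strand) and 53 bases around 3 of the other matches are printed 5′ to 3′ on the gene's own strand, with the match in capitals. The Fabp1 match lies 67 to 55 bases before the start, that of Plin2 (chr4:86670252-86670304, minus strand) 225 to 213 bases before it, that of Echs1 (chr7:140116472-140116524, minus strand) 83 to 71 bases and that of Etfa (chr9:55512288-55512340, minus strand) 77 to 65 bases. A match is a string of letters and shows no binding.
Fabp1: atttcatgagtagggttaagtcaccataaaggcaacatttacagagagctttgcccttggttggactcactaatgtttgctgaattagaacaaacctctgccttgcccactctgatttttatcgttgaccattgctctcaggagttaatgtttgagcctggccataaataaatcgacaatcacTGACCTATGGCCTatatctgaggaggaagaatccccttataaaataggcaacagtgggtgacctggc
Plin2: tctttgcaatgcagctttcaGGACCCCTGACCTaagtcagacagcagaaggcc
Echs1: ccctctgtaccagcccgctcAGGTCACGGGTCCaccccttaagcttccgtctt
Etfa: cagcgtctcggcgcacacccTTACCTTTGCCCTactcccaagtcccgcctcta

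Germ-free mice never carried microbes, whereas antibiotics deplete a microbiota already present, and the question here is how these genes differ between these states. Of the 37 measured genes, 3 were higher in germ-free cells (Fabp1, Acsl1 and Acot1) and 9 were lower (Pdk4, Acaa1b, Acaa1a, Acot2, Vnn1, Slc25a20, Slc27a4, Angptl4 and Acads). The largest differences were in Fabp1, at 233 CPM in germ-free and 58.7 CPM in antibiotic cells, and in Pdk4, at 26.4 CPM in germ-free and 105 CPM in antibiotic cells. Of the 14 genes of mitochondrial oxidation, 1 was among them. Higher and lower are used here of a gene whose summed levels (CPM, UMI scaled to the condition's total) differed at least 1.5-fold and whose cell sets did not overlap between conditions. By that rule 7.92% of the 11015 measured genes were higher and 8.87% lower. The count of higher genes among the 37 is near that share, and the count of lower genes is above it. Cell sets of 7 genes lay apart upwards at any size of difference and those of 18 downwards, against 24.8% and 23.7% of all measured genes. The median log2 ratio, germ-free over antibiotic of CPM + 1, was -0.15 over the 37 genes (order-statistic interval -0.40 to -0.03) and 0.03 over all measured genes. The median was 0.047 with each marker gate given equal weight, against -0.057 over all measured genes. With cells of at least 1000 UMI thinned to 1000 UMI and shallower cells left out, 24 of the genes were still measured. This kept 625 germ-free and 2444 antibiotic cells. The median of the 24 genes was 0.11, against -0.13 for the same genes unthinned in all cells. Over all genes measured when thinned it was -0.0035. A summed level does not tell fewer cells with the RNA from less RNA per cell. Intervals beside ratios are at the 95% level and cover counting error only.

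**Figure D1:**
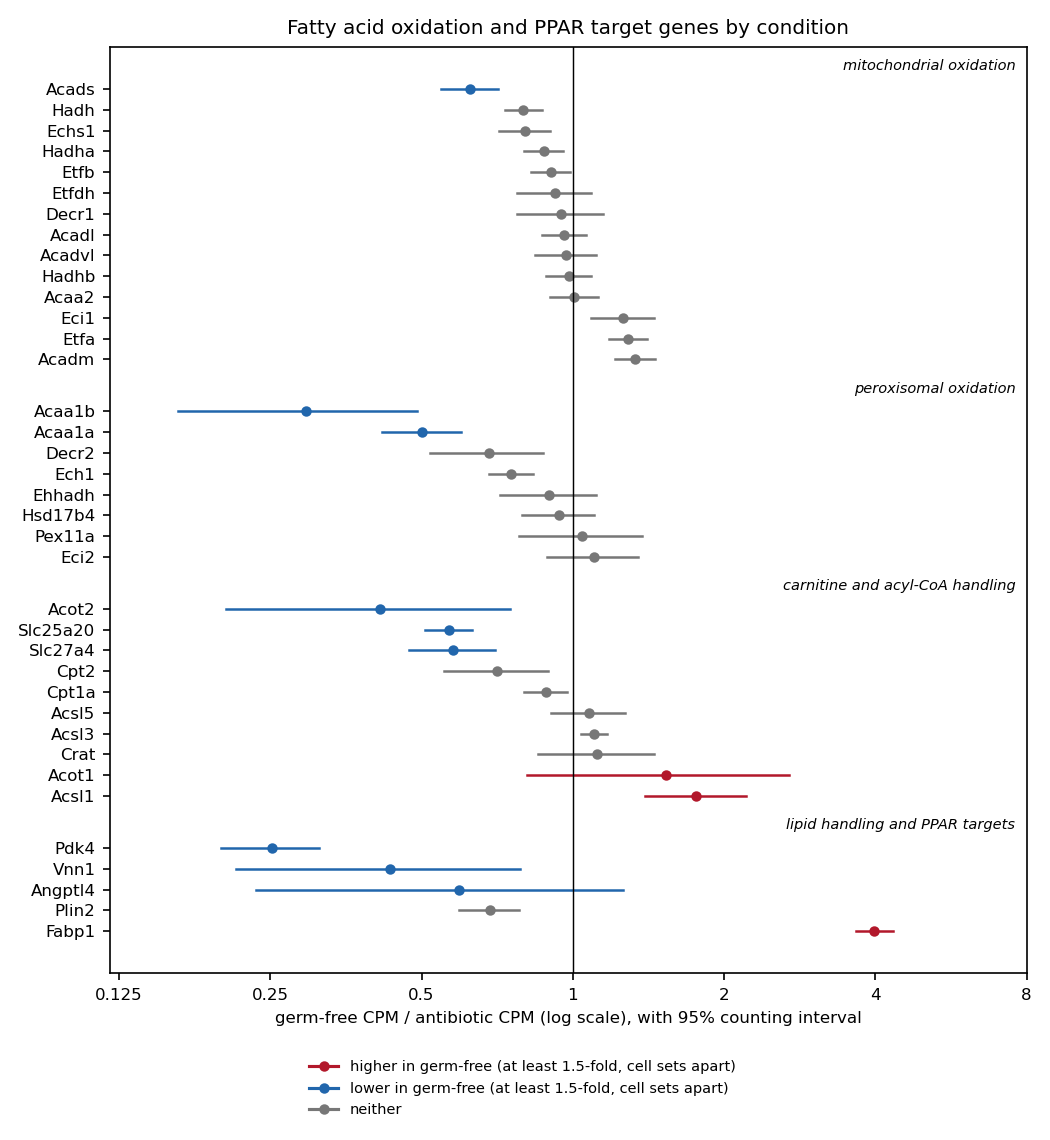
Ratio of germ-free to antibiotic CPM for the 37 measured genes, on a log axis, by role. Points are ratios of summed UMI, bars 95% counting intervals, red and blue genes differ at least 1.5-fold with cell sets apart. Fabp1 lies farthest right at 3.98 and Pdk4 farthest left, while most mitochondrial genes sit near 1.

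In mitochondrial oxidation, 0 of 14 genes were higher in germ-free cells and 1 was lower, with a median log2 ratio of -0.07. The lower gene was Acads (chr5:115110299-115119346), the short-chain acyl-CoA dehydrogenase that acts on butyryl-CoA. It was at 42.2 and 84.9 CPM in germ-free sets 3 and 4, against 116, 140 and 123 CPM in antibiotic sets 1, 2 and 3. Both germ-free sets lay below every antibiotic set, and the summed level was 1.60-fold lower (1.41 to 1.83). That size rests on the shallow germ-free set 3: without it the log2 ratio was -0.58 and under the 1.5-fold limit, and without germ-free set 4 it was -1.57. The call was also lost with gates weighted equally (-0.39), with cells thinned (-0.51) and without mitochondrial genes in the totals (-0.57). Hadh, the hydroxyacyl-CoA dehydrogenase of medium and short chains, had 186 and 186 CPM in germ-free sets and 245, 245 and 220 CPM in antibiotic sets. Hadha, the alpha subunit of the trifunctional protein for long chains, had 154 and 183 CPM in germ-free sets and 207, 208 and 202 CPM in antibiotic sets. For both genes the germ-free sets lay below all antibiotic sets, by less than 1.5-fold.

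The electron transfer flavoprotein takes electrons from the dehydrogenases. Etfa, its alpha subunit, had 258 and 178 CPM in germ-free sets, against 150, 160 and 135 CPM in antibiotic sets, a log2 ratio of 0.36 with the sets apart. Etfb, its beta subunit, had 127 and 178 CPM in germ-free sets and 151, 215 and 191 CPM in antibiotic sets, and these overlapped. Acadm, the medium-chain dehydrogenase, was at 211 and 162 CPM in germ-free sets, against 128, 129 and 123 CPM in antibiotic sets. Its sets did not overlap and its log2 ratio was 0.41, short of the 1.5-fold limit. Of the 14 genes the log2 ratios ran from -0.67 for Acads to 0.41 for Acadm, and the sets of 6 overlapped. The very-long-chain and long-chain dehydrogenases Acadvl and Acadl and the thiolase Acaa2 had log2 ratios between -0.05 and 0.01.

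Among the 8 peroxisomal genes 0 were higher and 2 lower in germ-free cells, with a median log2 ratio of -0.28. Both lower genes encode a peroxisomal thiolase, and both lie on mouse chromosome 9. Acaa1a (chr9:119339676-119350299) had 34.7 and 42.3 CPM in germ-free sets, against 80.5, 85.1 and 81.3 CPM in antibiotic sets, and was 2.00-fold lower (1.67 to 2.40). Acaa1b (chr9:119148023-119157093) had 4.96 and 4.82 CPM in germ-free sets, against 16.4, 13.8 and 18.4 CPM in antibiotic sets, and was 3.39-fold lower (2.04 to 6.10). In each gene every germ-free set lay well under every antibiotic set. The 2 are near-identical paralogs, so how their shared reads were assigned is uncertain, but both were lower. Ech1, a dienoyl-CoA isomerase, had 141 and 133 CPM in germ-free sets and 162, 197 and 171 CPM in antibiotic sets, apart by less than 1.5-fold. Hsd17b4 and Ehhadh, the bifunctional enzymes of the cycle, were at 51.0 and 29.3 CPM in germ-free cells and 54.4 and 32.7 CPM in antibiotic cells. Hsd17b4 ran from 42.2 to 52.3 CPM over germ-free sets and 51.5 to 63.7 CPM over antibiotic sets, which overlapped. Eci2, an enoyl-CoA isomerase, had 27.3 and 33.7 CPM in germ-free sets and 27.0, 33.8 and 28.4 CPM in antibiotic sets, which also overlapped. Pex11a, a peroxisome proliferation factor, was at 18.4 CPM in germ-free cells and 17.6 CPM in antibiotic cells.

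Carnitine and acyl-CoA handling genes were split, with 2 of 10 higher and 3 lower in germ-free cells and a median log2 ratio of -0.04. Slc25a20 (chr9:108662088-108684641), the carrier that exchanges acylcarnitine for carnitine across the inner mitochondrial membrane, had 112 and 115 CPM in germ-free sets, against 223, 183 and 204 CPM in antibiotic sets. It was 1.76-fold lower (1.58 to 1.97), with the germ-free sets close together and far under the antibiotic sets. With each marker gate given equal weight its log2 ratio was -0.57, just inside the 1.5-fold limit. Cpt1a, the rate-limiting enzyme of mitochondrial entry, had 156 and 139 CPM in germ-free sets and 168, 156 and 158 CPM in antibiotic sets, which overlapped. Slc27a4 (chr2:29802634-29817522), fatty acid transport protein 4, had 19.9 and 37.1 CPM in germ-free sets, against 54.1, 58.7 and 64.5 CPM in antibiotic sets. It was 1.73-fold lower (1.43 to 2.12), and the lowest set was the shallow germ-free set 3. Without germ-free set 4 its log2 ratio was -1.55, and with gates weighted equally or cells thinned it was -0.53 and -0.50, inside the limit.

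The long-chain acyl-CoA synthetases differed among themselves. Acsl1 (chr8:46471037-46536051) had 44.7 and 25.6 CPM in germ-free sets, against 15.4, 17.0 and 15.4 CPM in antibiotic sets, and was 1.76-fold higher (1.39 to 2.21). All antibiotic sets lay under both germ-free sets, but the log2 ratio of 0.78 was 0.15 with gates weighted equally, 0.56 as a mean of cells, and turned to -0.19 with cells thinned, where it was under the measuring limit, and it was 1.43 without germ-free set 4. Acsl3 had 563 and 358 CPM in germ-free sets and 378, 348 and 335 CPM in antibiotic sets, which overlapped, and it overlaps Utp14b on the same strand, so its reads may include that gene's. Acsl5 was at 49.0 CPM in germ-free cells and 45.6 CPM in antibiotic cells. The acyl-CoA thioesterases Acot1 and Acot2 are neighbouring paralogs on mouse chromosome 12 with few UMI. Acot2, the mitochondrial enzyme, had 0 and 4.08 CPM in germ-free sets, against 9.72, 8.42 and 8.15 CPM in antibiotic sets, and was 2.42-fold lower (1.33 to 4.90). Without germ-free set 4 its log2 ratio was -3.26, against -1.08 with all sets. The 0 stands for a set in which 3 counts would be 7.44 CPM. Acot1, the cytosolic enzyme, had 7.44 and 4.08 CPM in germ-free sets, against 3.33, 3.40 and 2.42 CPM in antibiotic sets. Its ratio of 1.53 had an interval of 0.81 to 2.69 that includes no difference, and its call was lost without germ-free set 3 (log2 ratio 0.36) or antibiotic set 3 (0.34), with gates weighted equally (0.38), in cells of at least 1000 UMI and at most 15% mitochondrial UMI (0.40) and with median-of-ratios scaling (0.40).

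**Figure D2:**
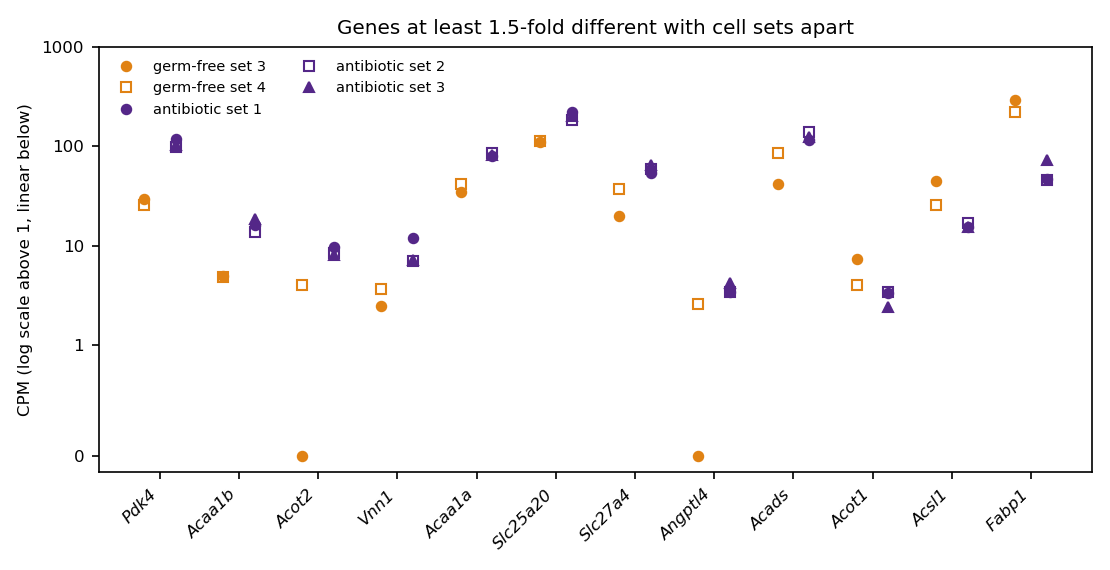
CPM of the 12 genes that were higher or lower in germ-free cells, by cell set (orange germ-free, purple antibiotic), on an axis that is log above 1 CPM and linear below. The germ-free sets lie under the antibiotic sets for the 9 genes from Pdk4 to Acads and above them for Acot1, Acsl1 and Fabp1.

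Of the 7 lipid handling and PPAR target genes, 5 were measured, 1 higher and 3 lower in germ-free cells. Pdk4 (chr6:5483351-5496309) encodes the kinase that switches pyruvate dehydrogenase off when fatty acids are burned. It had 29.8 and 25.9 CPM in germ-free sets, against 118, 98.4 and 104 CPM in antibiotic sets, and was 3.98-fold lower (3.19 to 5.01). The germ-free sets lay close together and far under every antibiotic set. Its log2 ratio of -1.95 ranged from -2.11 to -1.17 over 14 other ways of processing, all of them keeping the call. Fabp1 (chr6:71199827-71205023), a fatty acid binding protein abundant in liver and small intestine, had 295 and 224 CPM in germ-free sets, against 47.1, 46.3 and 73.7 CPM in antibiotic sets. It was 3.98-fold higher (3.65 to 4.33) and kept its call in all 14. Pdk4 and Fabp1, both known as PPAR targets, differed in opposite directions.

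Vnn1 (chr10:23894688-23905343), a pantetheinase, had 2.48 and 3.71 CPM in germ-free sets, against 11.9, 7.06 and 7.19 CPM in antibiotic sets, and was 2.31-fold lower (1.27 to 4.68). Angptl4, a secreted inhibitor of lipoprotein lipase, had 0 and 2.59 CPM in germ-free sets, against 3.45, 3.40 and 4.27 CPM in antibiotic sets. It rested on 7 germ-free UMI, its 1.68-fold difference had an interval of 0.79 to 4.26, and without germ-free set 3 it was inside the 1.5-fold limit (log2 ratio -0.42), while without germ-free set 4 it was -2.26. Its log2 ratio was also inside the limit with gates weighted equally (-0.11) and as a mean of cells (-0.43). Plin2, a coat protein of lipid droplets, had 57.1 and 75.2 CPM in germ-free sets and 108, 112 and 102 CPM in antibiotic sets, apart with a ratio just inside the limit (1.46-fold, 1.28 to 1.68). The other 2 were scarce: Cd36, a fatty acid translocase, had 2 germ-free and 3 antibiotic UMI, and Cyp4a10, an omega-hydroxylase, had 0 and 3 UMI. In the germ-free pool, 3 counts, the floor used for a count of 0, are 0.967 CPM, and the exact 2-sided interval for 0 counts reaches 1.19 CPM.

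Of 10 genes mainly known from the small intestine, picked after their values were seen, 8 were measured, 2 (Gip and Reg1) were higher and 1 (Alpi) was lower in germ-free cells. Their summed level was 635 and 725 CPM in germ-free sets, against 136, 331 and 218 CPM in antibiotic sets. Gip, a hormone of upper intestinal endocrine cells, had 677 germ-free and 4 antibiotic UMI, and Reg1, a secreted lectin, was 6.17-fold higher. The part of this in the Fabp1 difference was not tested.

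Ketone body and short-chain fatty acid genes, an acetyl-CoA-linked list outside the 39, were mostly close. Of 10 measured genes 2 were higher and 0 lower in germ-free cells, with a median log2 ratio of 0.02. Oxct1, which activates ketone bodies for burning, had 241 and 208 CPM in germ-free sets, against 124, 124 and 127 CPM in antibiotic sets. Slc5a8, a sodium-coupled carrier of short-chain fatty acids and ketone bodies, had 333 and 189 CPM in germ-free sets, against 129, 138 and 114 CPM in antibiotic sets. Bdh1, which interconverts ketone bodies, was at 46.1 CPM in germ-free cells and 52.4 CPM in antibiotic cells, with overlapping sets.

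Of 13 lipid droplet and lipoprotein genes, 0 were higher and 3 lower in germ-free cells, with a median log2 ratio of -0.31. Dgat2, which makes triglyceride, had 9.93 and 11.1 CPM in germ-free sets, against 28.3, 28.6 and 32.1 CPM in antibiotic sets. Cidec, a lipid droplet fusion protein, had 7.44 and 8.15 CPM in germ-free sets, against 19.6, 16.4 and 21.3 CPM in antibiotic sets. Mogat2, a monoacylglycerol acyltransferase, had 2.48 and 2.59 CPM in germ-free sets, against 3.33, 3.83 and 5.67 CPM in antibiotic sets, from 8 germ-free UMI and with a fold interval of 0.87 to 4.14 that includes no difference. Of 16 acyl-CoA binding and other peroxisome genes only Pex16, a peroxisome assembly factor, was lower (13.2 CPM in germ-free and 22.6 CPM in antibiotic cells) and 0 were higher. Of 10 fatty acid synthesis genes only Acacb was lower (6.77 CPM in germ-free and 10.9 CPM in antibiotic cells) and 0 were higher.

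The next question was where along the crypt axis the genes sit. Cells were gated on marker genes outside the 39: 77 germ-free and 301 antibiotic crypt cells, 58 and 146 cycling cells, 204 and 533 cells with moderate and 115 and 511 cells with high levels of colonocyte markers, 95 and 161 goblet cells, and 219 and 926 ungated cells. Of 35 genes measured over the high colonocyte and crypt gates, 12 were higher in colonocytes (at least 1.5-fold in each condition and in the same direction in all 5 cell sets), and 2, Fabp1 and Acsl1, were lower. By the same rule 12.3% of 8977 genes were higher and 19.8% lower. The median log2 ratio was 0.69 in germ-free and 1.27 in antibiotic cells, against -0.14 and -0.38 over all genes. In germ-free cells it was 0.95 without set 3 and 0 without set 4.

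The 12 genes higher in colonocytes covered every role: Acadl, Acadm, Acadvl and Etfb of mitochondrial oxidation, Ech1, Ehhadh and Decr2 of peroxisomal oxidation, Slc27a4, Slc25a20 and Cpt2 of acyl-CoA handling, and Pdk4 and Plin2. The germ-free counting intervals of the ratio included no difference for Ehhadh (0.92 to 6.81), Decr2 (0.79 to 6.06) and Cpt2 (0.89 to 8.16). In crypt cells of the shallow germ-free set 3, Decr2, Cpt2, Slc27a4 and Plin2 had 0 CPM. Without germ-free set 3 the higher genes were 19, and with cells thinned to 1000 UMI they were 7 of the 16 genes then measured. The share of all genes was not computed for these settings. Leaving out a set also eases the rule, since fewer sets must then share a direction. Pdk4 was at 48.3 CPM in high colonocytes and 12.2 CPM in crypt cells of germ-free mice, a ratio of 3.98 (1.40 to 15.6). In antibiotic mice it was at 184 CPM in high colonocytes and 9.13 CPM in crypt cells, a ratio of 20.2 (13.9 to 30.4). The counting intervals of its crypt levels overlapped between conditions (3.31 to 31.1 CPM in germ-free and 6.06 to 13.2 CPM in antibiotic cells), and those of its colonocyte levels did not. Ech1 was at 247 CPM in high colonocytes and 60.8 CPM in crypt cells of germ-free mice, and at 323 and 85.4 CPM in those of antibiotic mice. Acaa1b had 13.3 CPM in high colonocytes and 0 UMI in crypt cells of germ-free mice (8 and 0 UMI, with a counting interval of the ratio that starts at 0.94 and so includes no difference), and 34.0 CPM and 0.978 CPM, or 3 UMI, in antibiotic mice (34.7-fold, 11.8 to 169). Acaa1a, its paralog, had a ratio of 0.96 in germ-free cells (46.7 CPM in high colonocytes and 48.6 CPM in crypt cells) and 2.68 in antibiotic cells (123 and 46.0 CPM).

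Acsl1 ran the other way, at 15.0 CPM in high colonocytes and 51.6 CPM in crypt cells of germ-free mice, and at 5.16 and 35.9 CPM in antibiotic mice. Its highest level was in the goblet gate, with 69.5 CPM in germ-free and 95.7 CPM in antibiotic cells. Goblet cells made up 12.4% of germ-free and 6.25% of antibiotic cells. Within no gate that measured it was Acsl1 called different, though its high colonocyte level of 15.0 CPM in germ-free cells, from 9 UMI, stood above the 5.16 CPM of antibiotic cells. Fabp1 ran from 165 to 267 CPM over the 6 gates in germ-free cells (1.62-fold) and from 43.9 to 81.2 CPM in antibiotic cells (1.85-fold), lowest in the high colonocyte gate in both. Over the same gates in germ-free cells, the measured small intestinal genes spanned 1.48-fold (Rbp2, a retinol binding protein) to 5.60-fold (Alpi, an alkaline phosphatase), with Gip between 143 and 262 CPM.

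**Figure D3:**
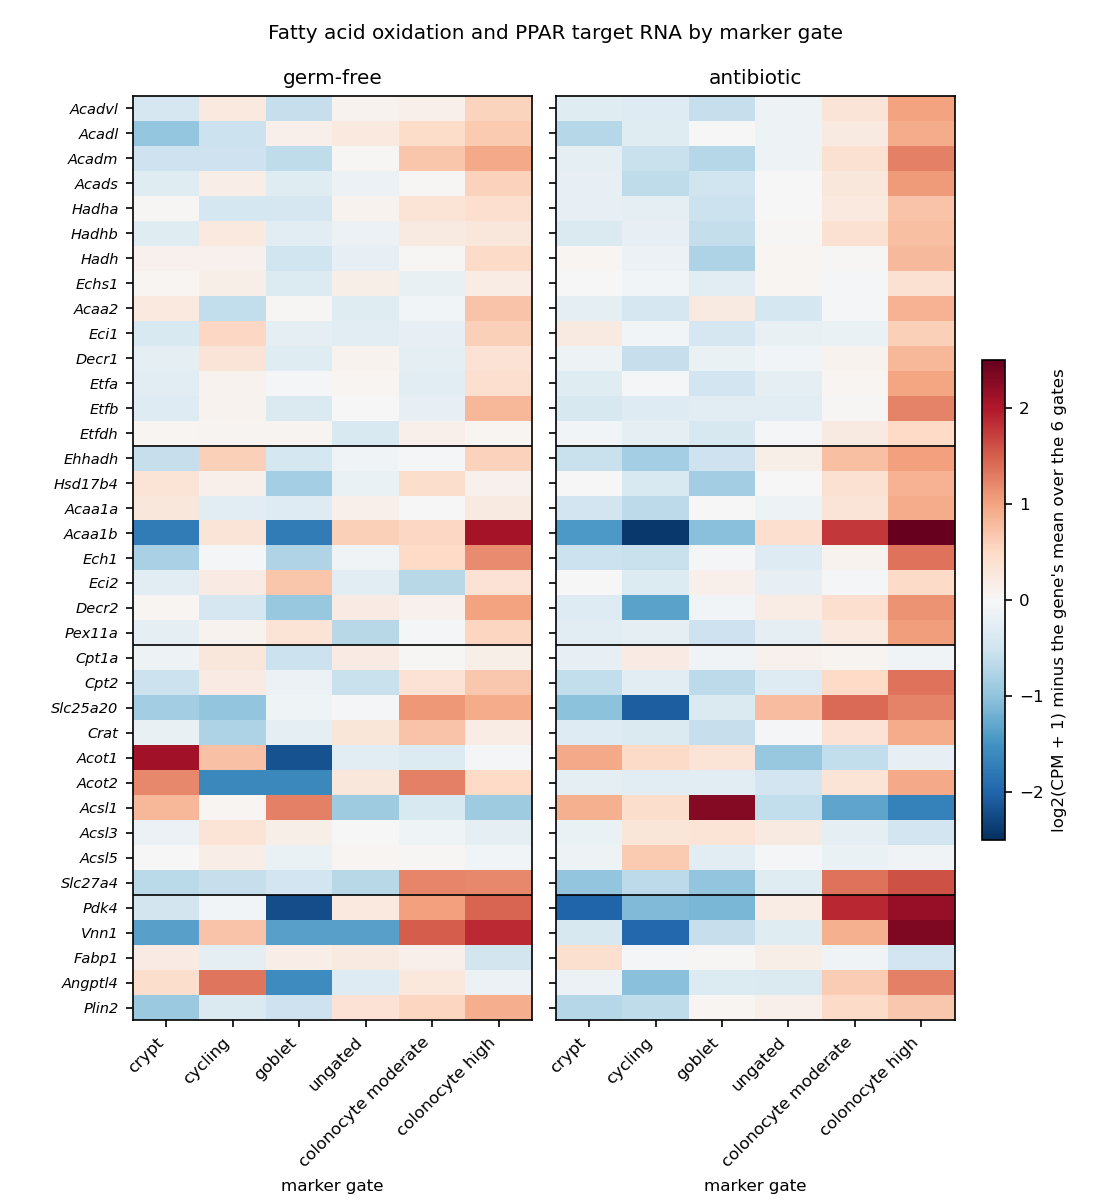
Level of each measured gene in 6 marker gates, as log2(CPM + 1) minus the gene's mean over the gates, germ-free left and antibiotic right; red is above the mean and blue below. Most rows are reddest in the high colonocyte gate, Acsl1 is reddest in the goblet gate, and the Fabp1 row is pale.

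Cells of 1 gate at a time were then compared between conditions. In the high colonocyte gate 34 genes were measured, and 1 was higher and 10 were lower in germ-free cells, where 15.3% of 7773 genes were higher and 12% lower. The lower genes were Acads, Hsd17b4, Acaa1a, Acaa1b, Cpt2, Slc25a20, Acot2, Slc27a4, Pdk4 and Vnn1, and the higher gene was Fabp1. The median log2 ratio was -0.33, against 0.11 over all genes of the gate. In germ-free set 3 of this gate Acads, Acaa1b, Acot2 and Vnn1 had 0 CPM, and Hsd17b4 had 13.8 CPM. Acaa1b, Acot2 and Vnn1 rested on 8, 2 and 5 germ-free UMI in the gate. For Acaa1b, Acot2 and Vnn1 a level of 0 in the shallow set 3 cannot be told from low depth, so that set adds little to their calls. Median UMI per cell in this gate were 4199 in germ-free and 20836 in antibiotic cells, and with cells thinned to 1000 UMI 2 of the 10 genes then measured were lower and 0 higher, with a median of -0.29. Without germ-free set 4, which leaves the 49 germ-free cells of set 3 in this gate, the lower genes were 20 and the median -0.75. The share of all genes in the gate was not computed with cells thinned or without set 4. Over all cells 23.9% of measured genes were lower without set 4, against 8.87% with all sets. The gate did not hold equal cells: summed colonocyte markers were at 26130 CPM in germ-free and 37973 CPM in antibiotic cells, proximal colon markers at 3127 and 6546 CPM, and distal colon markers at 1273 and 573 CPM. The part of these marker differences in the gene differences was not tested.

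Cpt2, the inner-membrane carnitine palmitoyltransferase, had 36.7 CPM in germ-free and 61.2 CPM in antibiotic cells of this gate. It was 1.67-fold lower (1.09 to 2.68), while over all cells it was inside the 1.5-fold limit. Pdk4 had 27.6 and 51.2 CPM in the germ-free sets of this gate, against 213, 183 and 170 CPM in the antibiotic sets, and was 3.81-fold lower (2.65 to 5.70). Acaa1a had 41.4 and 47.4 CPM in the germ-free sets, against 125, 121 and 124 CPM in the antibiotic sets, and was 2.64-fold lower (1.82 to 3.99). Acaa2, Cpt1a and Pex11a were near equal, Acaa2 at 182 CPM in both germ-free and antibiotic cells and Cpt1a at 150 CPM in both.

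**Figure D4:**
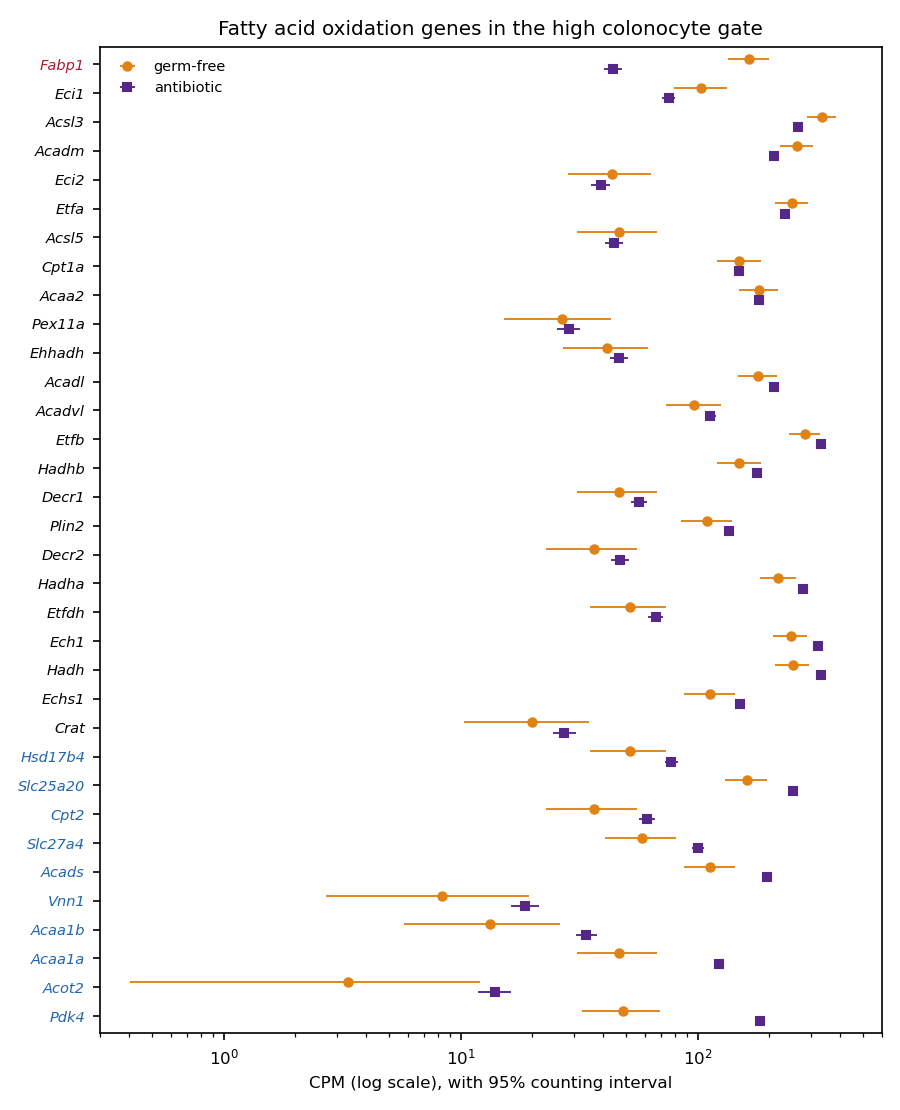
CPM of the 34 measured genes in the high colonocyte gate, germ-free (orange) above antibiotic (purple) in each row, with 95% counting intervals on a log axis. Rows run from the highest to the lowest ratio, gene names in red or blue were higher or lower in germ-free cells, and the 10 blue names fill the bottom.

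In the moderate colonocyte gate 3 of 32 measured genes were higher (Fabp1, Acadm and Crat) and 4 lower (Pdk4, Acaa1b, Acaa1a and Slc25a20), where 9.48% of genes were higher and 9.33% lower, with a median log2 ratio of -0.03. Pdk4 was at 35.7 CPM in germ-free and 150 CPM in antibiotic cells of that gate, 4.20-fold lower (2.89 to 6.35). In the crypt gate 3 of 23 genes were higher (Fabp1, Etfa and Acaa2) and 1 lower (Plin2), where 8.06% were higher and 15.9% lower, with a median of 0.11. In the cycling gate 5 of 17 genes were higher (Fabp1, Acadm, Hadhb, Etfa and Etfb) and 0 lower, where 6.17% were higher and 15.6% lower, with a median of 0.17. Summed colonocyte markers were at 3100 CPM in germ-free and 839 CPM in antibiotic cells of the cycling gate, and cycling markers at 2112 and 3228 CPM, and their part in these differences was not tested. In the goblet gate 3 of 18 genes were higher (Fabp1, Acadm and Etfa) and 3 lower (Acaa1a, Cpt1a and Plin2), where 7.96% were higher and 10.7% lower, with a median of -0.06. In ungated cells 4 of 32 genes were higher (Fabp1, Acadm, Etfa and Crat) and 2 lower (Slc25a20 and Slc27a4), where 9.49% were higher and 11.8% lower, with a median of 0.03.

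Fabp1 was higher in germ-free cells in all 6 gates, by 3.18-fold in the cycling gate to 4.32-fold in the moderate colonocyte gate. Acadm was higher in 4 of the 6, and in the moderate colonocyte gate it had 300 and 209 CPM in germ-free sets, against 126, 123 and 103 CPM in antibiotic sets (1.94-fold, 1.63 to 2.28). Etfa was higher in 4 of the 6, with 182 CPM in germ-free and 83.0 CPM in antibiotic goblet cells (2.20-fold, 1.61 to 2.96), while in the high colonocyte gate it was at 250 CPM in germ-free and 233 CPM in antibiotic cells. Neither gene passed the limit over all cells, where Etfa was at 189 CPM in germ-free and 147 CPM in antibiotic cells and Acadm at 168 and 126 CPM.

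Since the colon was taken whole, colonocytes were also split by proximal and distal marker genes. Proximal-gated colonocytes numbered 130 germ-free and 733 antibiotic cells, and distal-gated ones 41 and 55. Pdk4 was a proximal gene in these cells. In germ-free mice it had 68.5 CPM in proximal and 6.45 CPM, or 1 UMI, in distal colonocytes, a ratio of 10.6 (1.80 to 429). In antibiotic mice it had 214 CPM in proximal and 3.97 CPM, or 5 UMI, in distal colonocytes, a ratio of 53.9 (23.1 to 166). With 1 and 5 UMI, a difference between conditions was not detectable in distal colonocytes at this depth.

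Acaa1b had 13.7 CPM in proximal and 0 UMI in distal colonocytes of germ-free mice, where 3 counts would be 19.4 CPM, and 36.4 CPM and 1 UMI in those of antibiotic mice (45.8-fold, 8.19 to 1814). Vnn1 had 5 UMI in proximal and 2 in distal colonocytes of germ-free mice, a CPM ratio, proximal over distal, of 0.66 (0.11 to 6.96). In antibiotic mice it had 253 and 0 UMI, with a counting interval of the ratio that starts at 6.37. Slc27a4 had 41 and 1 UMI in proximal and distal colonocytes of germ-free mice, a ratio of 10.9 (1.84 to 440), and in antibiotic mice it was 2.86-fold higher in proximal ones (2.14 to 3.91). The thiolase Acaa2 was higher in proximal colonocytes by 2.06-fold in germ-free (1.15 to 4.002) and 2.78-fold in antibiotic mice (2.22 to 3.54). Ehhadh had 21 and 1 UMI in proximal and distal colonocytes of germ-free mice, and was 2.69-fold higher in proximal ones of antibiotic mice (1.79 to 4.22). In antibiotic mice Acaa1a differed from its paralog in showing no regional step, at 114 CPM in proximal and 116 CPM in distal colonocytes. The ratio was 0.99 (0.83 to 1.18). In germ-free mice it was at 42.8 and 38.7 CPM, from 25 and 6 UMI, a ratio of 1.10 (0.44 to 3.29). The germ-free interval of Acaa1b starts at 0.45, so the paralogs could not be told apart there. Fabp1 also showed no regional step, at 217 and 232 CPM in germ-free and 48.3 and 49.2 CPM in antibiotic mice.

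By the ratio of CPM + 1, 16 of the 37 measured genes in germ-free and 15 in antibiotic cells were at least 1.5-fold higher in proximal colonocytes. In distal ones 5 and 0 were. No UMI limit was set by region. The germ-free 16 include Acaa1b, Pex11a, Acot1, Acot2 and Angptl4, with 0 distal UMI, and Ehhadh, Slc27a4 and Pdk4, with 1. In distal-gated germ-free cells 3 counts are 19.4 CPM. In antibiotic cells Acot1 and Vnn1 had 0 distal UMI and Acaa1b 1. Over all measured genes 31.6% and 19.9% were that much higher in proximal, and 24.0% and 16.5% in distal colonocytes. Summed colonocyte markers were at 19111 and 31214 CPM in proximal colonocytes of germ-free and antibiotic mice, and at 12419 and 14011 CPM in distal ones. The part of this marker difference in the regional differences was not tested.

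**Figure D5:**
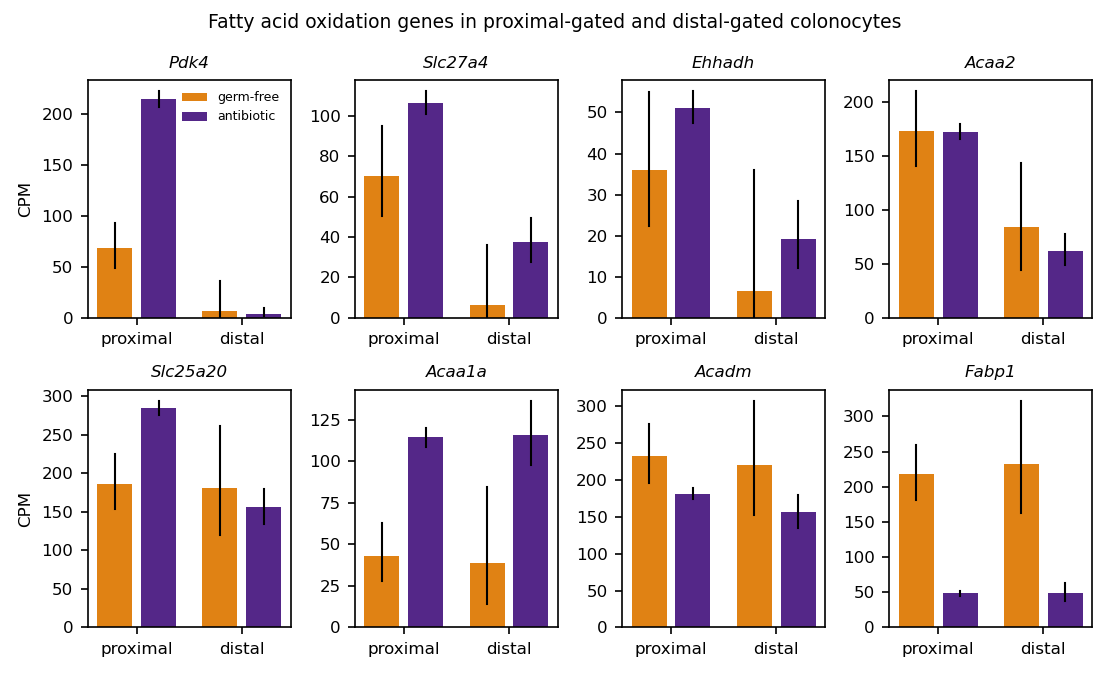
CPM of 8 genes in proximal-gated and distal-gated colonocytes, germ-free (orange) left of antibiotic (purple), with 95% counting intervals as bars. Pdk4 is near 0 in distal cells of both conditions. Acaa1a and Fabp1 are level between regions, with a wide interval for Acaa1a in germ-free distal cells, and their conditions differ in both.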

How the data were processed

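The deposited matrix holds natural log values for 32285 genes in 4183 cells. The authors' scaling was read from the deposited values: the exponential minus 1 sums to 10000 per cell, and each cell's smallest nonzero value, taken as 1 UMI, turned the rest into whole counts, within 0.01, for 100% of 9481333 nonzero values. The submitters' processing notes list Cell Ranger 7.0.0, kallisto, bustools and mm10 and give no roles. Strand use and cell filters are not stated there.

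Each name gives a cell's condition and set. Germ-free numbers do not equal the library labels, so cells were tied to conditions and not to libraries, and the 8 barcode libraries were not used. Same-barcode copies in antibiotic sets 1 and 2 correlated at 0.284 in the median against -0.072 for copies with different barcodes, 0.352 against -0.065 in sets 2 and 3, and 0.220 against 0.165 in sets 1 and 3, over 2000 variable genes. The 837 shallower copies (24.5% of antibiotic cells, 3.40% of their UMI) were left out.

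UMI were summed per condition, cell set and gate and scaled to CPM, with exact Poisson intervals for levels and conditional binomial intervals for ratios. The log2 ratio of CPM + 1 understates changes of low genes. With 1 pool per condition no test was run. Gates used marker UMI per 10000 UMI, with at least 2 marker UMI: goblet 50, cycling 10, high colonocyte 150, moderate colonocyte 50 and crypt 5, in that order. Over all 768 germ-free and 2578 antibiotic cells, 73 and 152 had colonocyte marker levels within 20% of the high limit, above or below it. The high gate itself held 115 and 511 cells. Proximal colonocytes had at least 20 proximal and under 5 distal marker UMI per 10000, distal ones at least 20 distal and under 20 proximal. A gene counted as measured in a gate with at least 100 UMI there. Doublets were not called.

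The 39 genes, the lists and the markers were chosen with earlier results of these data known, and the gate limits and small intestinal genes after the values were seen. Genes are given by cell set where they had the 4 highest levels of their role or were called, and all 39 are counted. Others named here were chosen after their values were seen. Positions are from GENCODE vM21 (mm10). The contrast was run on simulated counts with counting error only. These held no differences between pools or libraries, so they do not test the rule against such differences. Tables were made in pandas 2.3.3 and NumPy 2.4.6 under Python 3.11.15, intervals in SciPy 1.17.1, and figures in matplotlib 3.10.9.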

Additional observations from a re-analysis of the deposited data

Results flagged for a closer look

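For 5 genes every germ-free cell set lay on 1 side of the antibiotic sets in 1 gate and on the other side in the high colonocyte gate. All values are log2 ratios, germ-free over antibiotic, and the difference between gates was not tested. The share of all genes that do so was not counted. Over all cells, the sets of 24.8% and 23.7% of all measured genes lay apart upwards and downwards. Crat, the carnitine acetyltransferase, was at 0.65 in the moderate colonocyte gate and -0.44 in the high gate. Its reads may be mixed with those of Dolpp1, which overlaps it on the opposite strand. Hsd17b4 was at 0.51 in the crypt gate and -0.58 in the high colonocyte gate. Ech1 was at 0.29 in the cycling gate, 0.21 in the moderate colonocyte gate and -0.39 in the high gate. Acadl was at 0.27 in the moderate and -0.22 in the high colonocyte gate. Eci2 ran the other way, at -0.39 in the moderate and 0.15 in the high colonocyte gate. Its germ-free level in the high gate rested on 26 UMI. The counting interval of that level, 28.3 to 63.5 CPM, held the antibiotic level of 39.0 CPM. So did the germ-free intervals of Crat (10.3 to 34.9 against 27.4 CPM) and Acadl (148 to 217 against 210 CPM) in the high gate. Those of Hsd17b4 in crypt cells (37.1 to 93.8 against 42.4 CPM) and Eci2 in the moderate gate (11.6 to 33.1 against 27.0 CPM) did. Ech1's did in the cycling gate (71.1 to 147 against 84.8 CPM) and the moderate gate (127 to 183 against 132 CPM). In the opposite gate of Crat, Acadl, Hsd17b4 and Ech1 the interval did not hold it.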

How the results depend on the processing

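No paired analysis was possible because the design gives 1 pool per condition, which allows no test, and set numbers do not pair the conditions. Over all cells, 9 genes were lower in germ-free cells, and this became 5 with gates weighted equally and 4 with cells thinned to 1000 UMI (625 germ-free and 2444 antibiotic cells), where 24 of the 37 genes were still measured. Of those 24, 5 were lower unthinned. Of all measured genes 11.4% were lower and 5.8% higher with gates weighted equally, and 9.95% and 12.2% when thinned. The median log2 ratio of -0.15 over the 37 genes became 0.047 with gates weighted equally. It was 0.11 over the 24 when thinned. Over all measured genes these medians were -0.057 and -0.0035. Acsl1 turned to -0.19 when thinned. The cause was not tested. Leaving out each cell set in turn gave 2 to 6 genes higher, 7 to 15 lower and a median of -0.33 to -0.13. The shares of all measured genes were then 5.87% to 20.1% higher and 8.46% to 23.9% lower. Genome-wide, median-of-ratios scaling moved the median of all measured genes to -0.075 and the shares to 5.26% higher and 12.2% lower, and totals without mitochondrial genes to 0.13, 11.5% and 6.23%. The median of the 37 measured genes was -0.25 and -0.04 under these. Including all deposited antibiotic cells, a setting added after the data were seen, changed no call. Of the 12 calls, those of Acaa1a, Pdk4 and Fabp1 held in all 14 alternatives. Those of Acaa1b, Acot2 and Vnn1 held in the 13 in which the gene was measured, all but thinning. The other 6 were lost in 1 or more in which the gene was measured. Without the deeper germ-free set 4, 20.1% of all measured genes were higher and 23.9% lower, so the 6 and 15 calls of that setting stand beside a larger background.

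The count of genes higher in high colonocytes than in crypt cells was 7 of the 16 measured when thinned, and 12 to 19 over left-out sets. Lower genes were 1 with strict cells (from 1000 UMI up, and no more than 15% mitochondrial), 1 with stricter gates, 0 when thinned and 1 to 2 over left-out sets. The germ-free median ran from 0 to 0.95. In the high colonocyte gate, the count of genes higher in germ-free cells was 2 with a limit of 20 UMI, 2 with strict cells, 0 when thinned and 1 to 2 over left-out sets. The count of lower genes there was 2 of the 10 measured when thinned and 9 to 20 over left-out sets, with medians from -0.75 to -0.28. The crypt gate's median ran from -0.0011 to 0.32. The values of 19 and 0.95 came without germ-free set 3, and those of 0, 20, -0.75 and 0.32 without germ-free set 4. In these comparisons of gates and within gates, shares of all genes were not computed for the other settings, so the counts lack a background. Promoter matches at 1 mismatch numbered 1. Thinning gave no value in the crypt, cycling, moderate colonocyte and goblet gates, where too few of the 39 genes stayed measured. Strict cells, and leaving out germ-free set 4, gave none in the cycling gate, with 13 and 18 cells. Germ-free depth limits all low genes: 3 counts in germ-free set 3 are 7.44 CPM.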

Other observations

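Genes of lipid uptake and export outside the 39 were measured alongside. Fabp2, the intestinal fatty acid binding protein, had 759 and 655 CPM in germ-free sets, against 710, 829 and 822 CPM in antibiotic sets, and the sets overlapped. Dbi, an acyl-CoA binding protein, had 804 and 641 CPM in germ-free sets, against 567, 721 and 619 CPM in antibiotic sets, again overlapping. Slc16a1, a carrier of lactate and butyrate, was at 139 CPM in germ-free and 129 CPM in antibiotic cells. Apob, the main protein of chylomicrons, had 81.9 and 94.9 CPM in germ-free sets, against 132, 101 and 122 CPM in antibiotic sets, apart but by less than 1.5-fold. Mttp, which loads lipid onto Apob, was at 25.5 CPM in germ-free and 12.8 CPM in antibiotic cells, with overlapping sets.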
